A study of Homo sapiens with 10 samples.

Results

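Interferon-stimulated genes were followed across PC-3 spheroids that received topotecan or no drug. PC-3 is an established human prostate cancer cell line with little androgen receptor, grown here as 3D spheroids of a genotype labelled WT. The group held 42 genes of the 18144 in the deposited table, chosen by gene symbol as known targets of type I interferon, and all 42 were found. Spheroids got no drug (CTRL), topotecan as 1 bolus at the start (CONV-TOPO, labelled CON), or the same weekly total in daily fractions (EE-TOPO, extended exposure, labelled EE with the treatment METRO, for metronomic). RNA was sequenced on days 0, 3 and 7 for CTRL and on days 3 and 7 for either regimen, giving 7 libraries of the 10 samples. Each condition had a single library and no replicate. The 3 samples of day 1 were not analysed here. The study's dosing key gives CONV-TOPO spheroids of day 3 a smaller bolus than those of day 7, so the days of that regimen differ in dose as well as in time. Its text describes the later exposure as lasting weeks, whereas the sample labels call it day 7, the name used here.

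Cells sense interferons through surface receptors (IFNAR1 and IFNAR2 for type I) whose kinases JAK1 and TYK2 switch on ISGF3, a complex that includes STAT2 and IRF9, binds a DNA element called the ISRE and switches on a set of antiviral genes. The same genes can be raised without a virus when a cell's own nucleic acids reach cytosolic sensors, and a subset of them is known for constitutive expression in tumours that resist DNA damage. Topotecan traps topoisomerase I on DNA and thereby breaks DNA in replicating cells.

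The ISRE was looked for in the promoters because the genes were chosen as targets of the factor that binds it. RefSeq promoter windows on GRCh38.p14, which run from 250 bases before to 50 bases after a gene's start, were matched for 35 of the 42 genes. The letters GAAA, any 2 bases and GAAA, read on both strands, lay in a window of 25 of these 35 (71.4%), against 1195 of 27305 genes overall (4.38%). The letters TTCNNNGAA, a form of the GAS element known from the interferon-gamma response, lay in a window of 11 of 35 (31.4%), against 9.38% of genes overall. Matches can overlap each other, and a match is a stretch of letters, not a measured binding site. The windows of 4 genes are printed with the ISRE letters in capitals. IFI27 and IFI6 had the highest ratios to untreated spheroids on day 7 with either regimen, and IFIT3 and PARP14 were called higher without drug on day 3 but not with drug on day 7. The IFI27 window is chr14:94110486-94110785 on the plus strand, that of IFI6 is chr1:27672143-27672442 on the minus strand, that of IFIT3 is chr10:89327747-89328046 on the plus strand, and that of PARP14 is chr3:122680589-122680888 on the plus strand.
IFI27: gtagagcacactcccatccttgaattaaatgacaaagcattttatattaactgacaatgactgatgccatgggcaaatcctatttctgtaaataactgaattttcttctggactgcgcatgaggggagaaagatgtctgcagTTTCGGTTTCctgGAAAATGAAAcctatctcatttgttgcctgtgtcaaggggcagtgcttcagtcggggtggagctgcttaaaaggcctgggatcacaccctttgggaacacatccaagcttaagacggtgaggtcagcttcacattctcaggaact
IFI6: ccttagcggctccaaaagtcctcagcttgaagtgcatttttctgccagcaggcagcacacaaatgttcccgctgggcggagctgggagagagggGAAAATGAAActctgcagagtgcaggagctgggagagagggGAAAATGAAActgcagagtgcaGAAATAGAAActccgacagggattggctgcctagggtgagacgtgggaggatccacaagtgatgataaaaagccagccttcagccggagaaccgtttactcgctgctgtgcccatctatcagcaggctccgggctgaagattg
IFIT3: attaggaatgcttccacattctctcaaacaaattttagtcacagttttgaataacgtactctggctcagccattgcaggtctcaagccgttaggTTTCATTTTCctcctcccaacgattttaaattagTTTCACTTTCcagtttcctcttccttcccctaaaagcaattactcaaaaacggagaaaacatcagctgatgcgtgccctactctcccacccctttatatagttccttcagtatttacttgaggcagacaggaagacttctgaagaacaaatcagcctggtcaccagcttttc
PARP14: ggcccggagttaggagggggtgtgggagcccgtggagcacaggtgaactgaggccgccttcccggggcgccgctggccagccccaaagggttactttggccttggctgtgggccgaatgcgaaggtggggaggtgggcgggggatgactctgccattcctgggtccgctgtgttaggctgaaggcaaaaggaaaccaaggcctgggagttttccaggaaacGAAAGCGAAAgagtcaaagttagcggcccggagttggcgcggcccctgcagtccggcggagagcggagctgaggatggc
IFI6 carried 3 matches, IFI27 and IFIT3 carried 2 each, and PARP14 carried 1. The letters were thus found in genes of both kinds of day-7 behaviour described further on. A stretch of these letters lay in windows of 9 of 13 matched genes called higher with both regimens on day 7 and of 13 of 18 matched genes called with neither.

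The deposited values are counts per 1000000 reads (CPM). They were divided here by a trimmed-mean (TMM) scaling factor for each library, between 0.882 and 1.09, and every level below is this scaled CPM. Low values lie on steps of 1 read, from which a depth of 15.0 M to 22.5 M reads per library (M for 1000000) was estimated. The lowest value of any of the 42 genes rested on 17 estimated reads (EPSTI1, untreated day 0), and all 42 were past the filter on low values in every library, so none passed it through a high group alone. Ratios of 2 libraries are given with exact 95% intervals in parentheses that cover counting error only, compare libraries and have no replicate check. A gene is called higher or lower in such a comparison at 2-fold or more with an interval that leaves out 1. KRT8, KRT18, KRT19, EPCAM, CD44 and VIM were all present, and CTNNA1, deleted in PC-3, was at 0 to 0.40 CPM. Of 6 immune markers 3 were listed, with PTPRC at 0.45 CPM or less. CD68, which epithelial cells express too, was at 66.5 CPM untreated on day 7 and at 136 and 142 CPM with CONV-TOPO and EE-TOPO. Of the stromal and endothelial markers, VWF was at 0.15 CPM or less while COL1A1 was at 48.5 to 78.9 CPM, PECAM1 at 18.6 to 31.3 CPM and COL3A1 at 3.32 to 14.6 CPM. In bulk RNA, fewer cells expressing a gene and less RNA per cell cannot be told apart.

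Without drug, the interferon-stimulated genes rose together by day 3. Relative to day 0, 38 of the 42 were called higher on day 3 and 0 lower, against 3.63% of all 14836 tested genes called higher and 1.39% lower. The interval of all 42 lay above 1. Their median log2 ratio was 1.74, with a range from 0.15 (ISG20) to 3.31 (XAF1), where the median of all tested genes was 0.00. The 4 not called were IRF1 at 1.96-fold (1.83 to 2.10), IFIT5 at 1.86-fold (1.66 to 2.09), STAT2 at 1.83-fold (1.73 to 1.92) and ISG20 at 1.11-fold (1.02 to 1.21). The nearest to the limit inside it were PARP14 at 2.09-fold and LGALS3BP at 2.11-fold.

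By day 7 the untreated levels had come part of the way back. Day 3 was called higher than day 7 for 21 of 42 genes, against 2.18% of tested genes, and lower for 0, against 3.23%, and all 42 intervals lay above 1. The median log2 ratio of day 3 to day 7 was 0.99, from 0.18 (PARP14) to 1.81 (OASL). Day 7 still stood above day 0 for 41 of 42 genes, with 15 called higher against 4.57% of tested genes, 0 called lower against 0.964%, and a median of 0.78. XAF1 stayed highest, at 6.89-fold (4.48 to 11.1) of day 0, whereas OASL was at 1.03-fold (0.881 to 1.21) and ISG20 at 0.899-fold (0.819 to 0.987). Of the 42 genes, 39 had their lowest level of all 7 libraries on untreated day 0. The exceptions were STAT2 (lowest with EE-TOPO on day 7), IFIT5 (CONV-TOPO on day 7) and ISG20 (EE-TOPO on day 3). Comparisons that share a library, as these do, are not independent of each other.

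**Figure D1:**
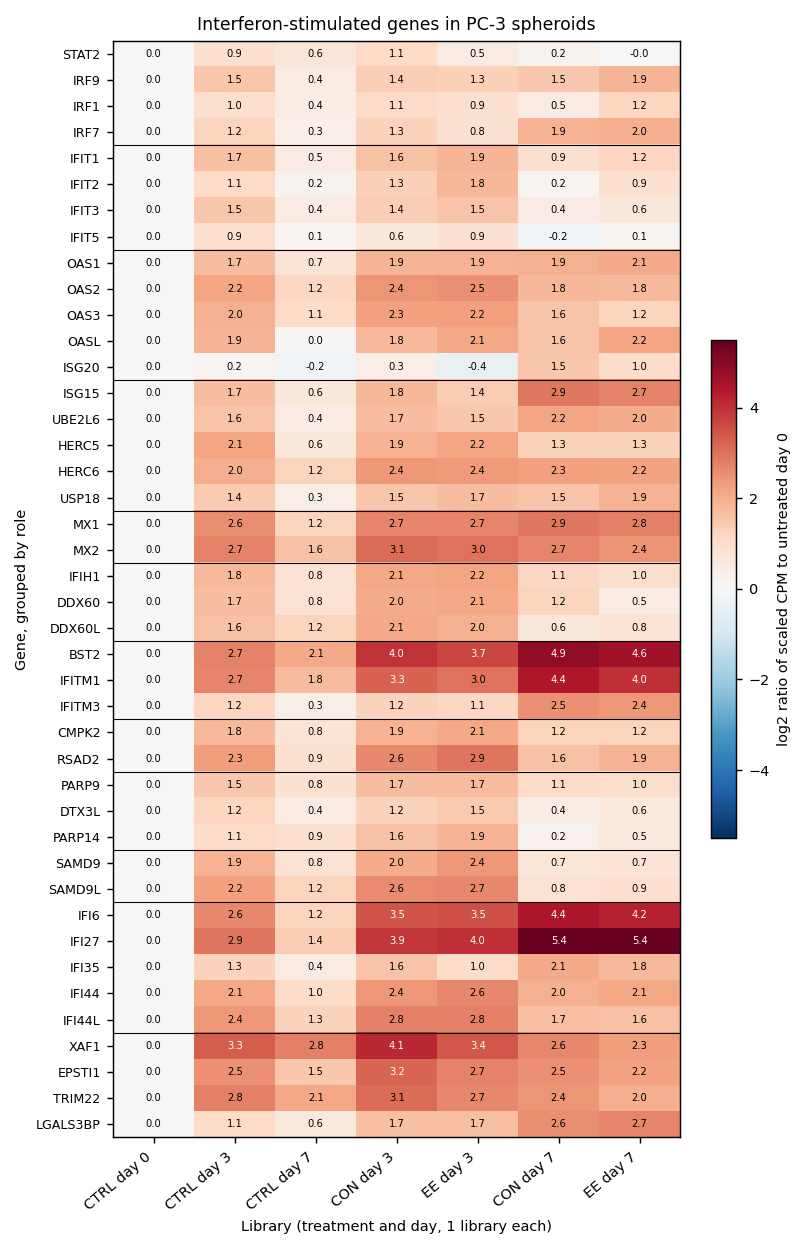
Log2 ratio of the scaled CPM of each of the 42 genes (rows, grouped by role) to the untreated day-0 library, in 7 libraries (columns, 1 for each treatment and day, no error bars). Rows run red across the 3 day-3 libraries except for ISG20, and all are lower in CTRL day 7 than in CTRL day 3. With topotecan on day 7 they range from pale (STAT2, IFIT5) to deep red (IFI27). The split against untreated day 7 is not plotted here. IFI27 has the widest range, 43.4-fold between CTRL day 0 and CON day 7.

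On day 3 most genes of the set stood above untreated with topotecan, few of them past the limit. With CONV-TOPO 1 of 42 genes was called higher than untreated day 3 (BST2, 2.34-fold (2.18 to 2.51)), against 2.61% of tested genes, and with EE-TOPO 1 (IFI27, 2.11-fold (1.91 to 2.34)), against 3.96%. Both regimens were set against the same untreated library of their day. None of the 42 was called lower with either regimen, against 1.41% and 1.42% of tested genes. The median log2 ratio was 0.23 with CONV-TOPO and 0.26 with EE-TOPO. All tested genes had medians of -0.01 and -0.03 and upper quartiles of 0.22 and 0.28. The intervals of 34 and 27 genes lay above 1, and those of 3 and 8 below 1. Ratios to the untreated library of the same day were thus above 1 for 36 genes with CONV-TOPO and 31 with EE-TOPO, mostly by less than 2-fold. All 3 libraries of day 3 were above untreated day 0 for 41 of 42 genes. The exception was ISG20, at 36.1 CPM with EE-TOPO against 48.3 CPM on day 0.

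On day 7 the set split with topotecan. With CONV-TOPO 19 of 42 genes were called higher than untreated day 7, against 9.56% of tested genes, and with EE-TOPO 18 of 42, against 11%. None of the 42 was called lower, where 13.2% and 13.9% of tested genes were. The median log2 ratio was 0.71 with CONV-TOPO, from -0.64 (PARP14) to 4.04 (IFI27), and 0.76 with EE-TOPO, from -0.66 (STAT2) to 4.02 (IFI27). Without TMM scaling, which shifts day-7 ratios of treated libraries as a whole, the medians were 0.46 and 0.54. In the treated day-7 libraries 2118 (CONV-TOPO) and 1651 (EE-TOPO) of the 18144 genes were listed at 0, against 583 to 1246 in the other libraries, and the part of this in the result was not tested. Called higher with both regimens were 16 genes, namely IRF7, IRF9, OAS1, OASL, ISG20, ISG15, UBE2L6, USP18, MX1, BST2, IFITM1, IFITM3, IFI6, IFI27, IFI35 and LGALS3BP. Removal of a trend with transcript length, described further on, left 9 of these 16 at the limit or above in both. Past the limit with 1 regimen were MX2, HERC6 and EPSTI1 with CONV-TOPO and IFI44 and RSAD2 with EE-TOPO, and these lay close to it. HERC6 was at 2.08-fold (1.85 to 2.34) under CONV-TOPO and 1.996-fold (1.77 to 2.25) under EE-TOPO, and IFI44 at 1.96-fold (1.73 to 2.22) and 2.21-fold (1.95 to 2.50). The other 21 genes were called with neither, and 6 of the 42 (STAT2, DDX60L, PARP14, SAMD9, SAMD9L and XAF1) were below untreated day 7 with both regimens. After removal of the trend with length, only STAT2 of these was below in both, at log2 ratios of -0.33 and -0.54.

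The rise without drug on day 3 against day 0 and the rise with drug on day 7 against untreated day 7 share no library. Of the 38 genes that rose without drug, 15 were called higher with both regimens on day 7, 5 with 1 regimen and 18 with neither. Of the 4 that did not rise without drug, ISG20 was called with both regimens on day 7 and STAT2, IRF1 and IFIT5 with neither. For 13 genes both treated day-7 libraries exceeded every day-3 library, and for 23 genes both lay below every day-3 library.

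**Figure D2:**
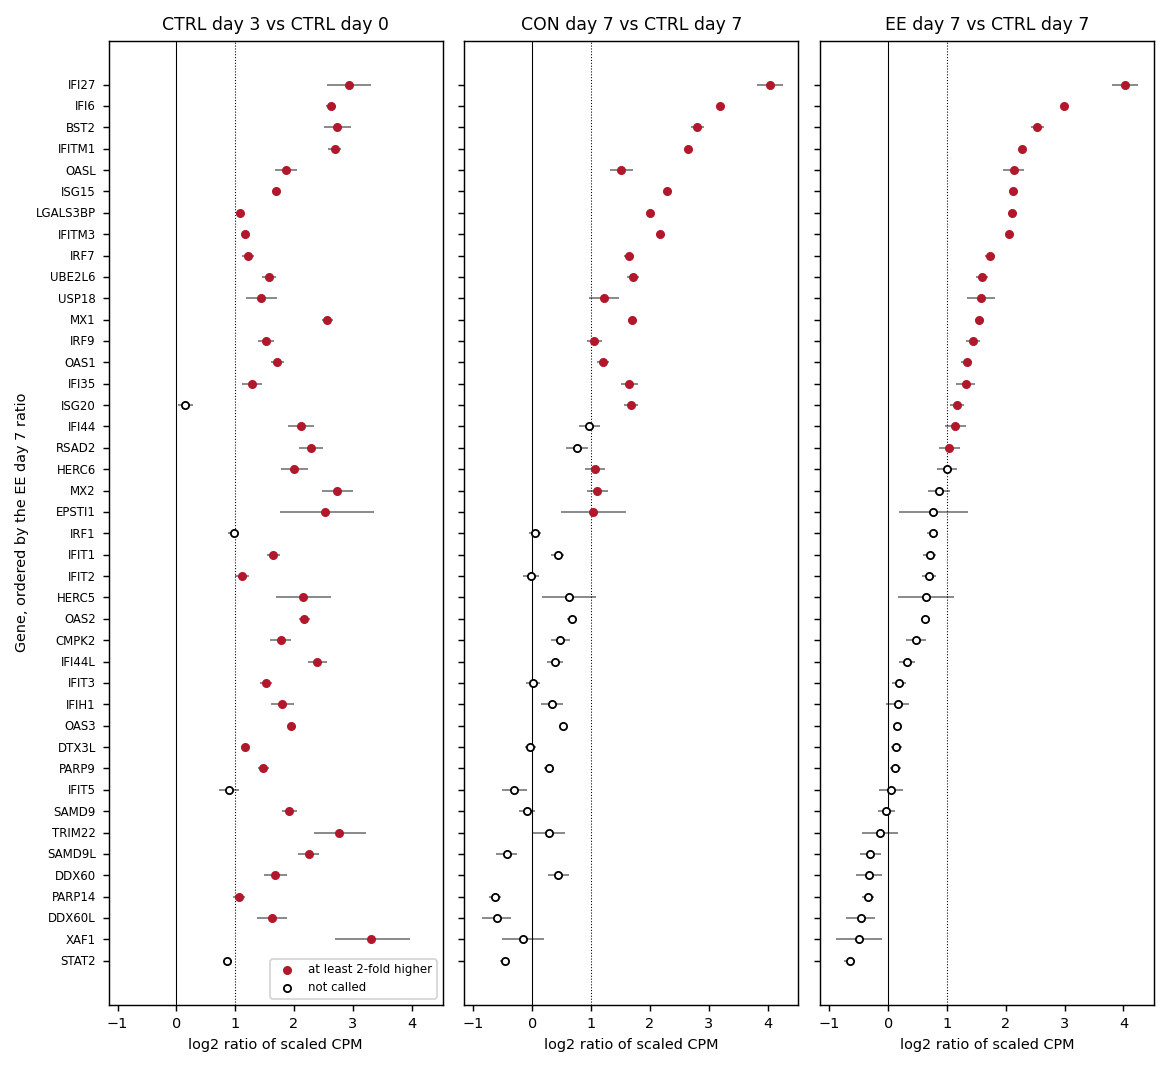
Log2 ratios of scaled CPM for the 42 genes (rows, in the order of the EE day 7 ratio) in 3 comparisons of single libraries, with bars for the exact 95% counting interval. Filled points are at least 2-fold higher with an interval that leaves out 1 (dotted line, log2 ratio of 1), which holds for 38, 19 and 18 genes from left to right.

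The transcription factors that carry the response differed among themselves. Untreated STAT2 went from 114 CPM on day 0 to 208 on day 3 and 179 on day 7, CONV-TOPO spheroids held 241 and 129 CPM and EE-TOPO spheroids 158 and 113 CPM on days 3 and 7. STAT2 is a core part of ISGF3, and its level peaked with CONV-TOPO on day 3 and was lowest with EE-TOPO on day 7. The level of IRF9 was 32.2 CPM at the start, then 92.8 (CTRL), 82.5 (CONV-TOPO) and 80.4 CPM (EE-TOPO) on day 3, and 43.8, 91.2 and 119 CPM in the same order on day 7. IRF9 gives ISGF3 its DNA contact, and it was called higher with drug on day 7, at 2.08-fold (1.91 to 2.27) under CONV-TOPO and 2.72-fold (2.50 to 2.95) under EE-TOPO. For IRF7, day 3 gave 143 CPM in CTRL, 147 in CONV-TOPO and 109.8 in EE-TOPO, day 7 gave 73.9, 231 and 245 CPM, and untreated day 0 gave 61.4 CPM. IRF7, which drives the later wave of interferon genes, was highest in both treated day-7 libraries, at 3.12-fold (2.94 to 3.32) and 3.31-fold (3.12 to 3.53) of untreated day 7. IRF1 was measured at 64.3, 126 and 86.0 CPM without drug (days 0, 3, 7), at 134 and 88.9 CPM with CONV-TOPO (days 3, 7) and at 119 and 146 CPM with EE-TOPO (days 3, 7). IRF1, an early factor shared with interferon-gamma, was highest with EE-TOPO on day 7, at 1.69-fold (1.59 to 1.81) of untreated, where CONV-TOPO was at 1.03-fold (0.961 to 1.11). A readthrough transcript annotated in GENCODE 44 covers 93.1% of the IRF9 transcript, and reads on IRF1 overlap an antisense RNA over 16.3% of its transcript, so both are uncertain to that extent.

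IFIT proteins bind foreign RNA and block its translation. Untreated IFIT1 went from 45.9 CPM on day 0 to 144 on day 3 and 62.9 on day 7, CONV-TOPO spheroids held 141 and 84.7 CPM and EE-TOPO spheroids 170.2 and 103 CPM on days 3 and 7. The level of IFIT2 was 45.1 CPM at the start, then 97.6 (CTRL), 113 (CONV-TOPO) and 159 CPM (EE-TOPO) on day 3, and 51.2, 50.6 and 82.9 CPM in the same order on day 7. Both stood above day 0 in all 3 libraries of day 3 and were highest with EE-TOPO on day 3. For IFIT3, day 3 gave 153 CPM in CTRL, 136 in CONV-TOPO and 156 in EE-TOPO, day 7 gave 71.9, 72.7 and 81.6 CPM, and untreated day 0 gave 53.2 CPM. IFIT5 was measured at 22.7, 42.3 and 24.3 CPM without drug (days 0, 3, 7), at 35.5 and 19.7 CPM with CONV-TOPO (days 3, 7) and at 41.0 and 25.2 CPM with EE-TOPO (days 3, 7). IFIT3 rose 2.88-fold (2.68 to 3.09) without drug, and stood at 1.01-fold (0.933 to 1.10) under CONV-TOPO and 1.14-fold (1.05 to 1.23) under EE-TOPO of untreated on day 7. None of the 4 IFIT genes was called higher with drug on day 7. IFIT2 with EE-TOPO was 1.64-fold (1.49 to 1.80) of CONV-TOPO on day 7, the highest such ratio among the 42.

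OAS enzymes make short oligoadenylates that activate RNase L. Untreated OAS1 went from 44.3 CPM on day 0 to 146 on day 3 and 73.9 on day 7, CONV-TOPO spheroids held 163 and 170.2 CPM and EE-TOPO spheroids 166 and 186 CPM on days 3 and 7. The level of OAS2 was 57.6 CPM at the start, then 259.8 (CTRL), 309 (CONV-TOPO) and 325 CPM (EE-TOPO) on day 3, and 128, 204 and 198 CPM in the same order on day 7. OAS1 was higher in all 4 treated libraries than in any untreated one, whereas OAS2 was lower in both treated libraries of day 7 than in any library of day 3. An antisense RNA overlaps 5.64% of the OAS1 transcript. For OAS3, day 3 gave 638 CPM in CTRL, 784 in CONV-TOPO and 778 in EE-TOPO, day 7 gave 343, 492 and 381 CPM, and untreated day 0 gave 164 CPM. OASL was measured at 15.7, 56.9 and 16.2 CPM without drug (days 0, 3, 7), at 53.4 and 46.1 CPM with CONV-TOPO (days 3, 7) and at 68.0 and 70.9 CPM with EE-TOPO (days 3, 7). OAS3, whose transcript is the longest of the 4, was 1.43-fold (1.39 to 1.48) and 1.11-fold (1.07 to 1.15) of untreated on day 7 with CONV-TOPO and EE-TOPO, below the limit. OASL, a relative that aids RIG-I signalling and makes no oligoadenylate, was 2.85-fold (2.49 to 3.26) and 4.38-fold (3.86 to 4.98). Untreated ISG20 went from 48.3 CPM on day 0 to 53.7 on day 3 and 43.4 on day 7, CONV-TOPO spheroids held 61.5 and 139 CPM and EE-TOPO spheroids 36.1 and 97.9 CPM on days 3 and 7. ISG20, an exonuclease that degrades RNA, did not follow the day-3 rise and was highest in both treated libraries of day 7.

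ISG15 is a ubiquitin-like protein that UBE2L6 and HERC5 attach to other proteins and USP18 removes. The level of ISG15 was 279 CPM at the start, then 902 (CTRL), 988 (CONV-TOPO) and 741 CPM (EE-TOPO) on day 3, and 425, 2087 and 1848 CPM in the same order on day 7. For UBE2L6, day 3 gave 122 CPM in CTRL, 134 in CONV-TOPO and 116 in EE-TOPO, day 7 gave 55.7, 183 and 168 CPM, and untreated day 0 gave 41.0 CPM. Both were highest with CONV-TOPO on day 7 and next highest with EE-TOPO on day 7. ISG15 there was 4.91-fold (4.79 to 5.03) and 4.35-fold (4.24 to 4.46) of untreated, and per transcript length its level led the set in each library, at 438 CPM per kilobase on untreated day 0 and 3276 with CONV-TOPO on day 7. HERC5 was measured at 2.45, 10.9 and 3.79 CPM without drug (days 0, 3, 7), at 9.31 and 5.86 CPM with CONV-TOPO (days 3, 7) and at 10.96 and 5.92 CPM with EE-TOPO (days 3, 7). Untreated HERC6 went from 10.3 CPM on day 0 to 41.3 on day 3 and 23.9 on day 7, CONV-TOPO spheroids held 54.0 and 49.8 CPM and EE-TOPO spheroids 53.0 and 47.7 CPM on days 3 and 7. HERC6 is a close relative of the ligase HERC5 and was highest with CONV-TOPO on day 3. HERC5 rose 4.44-fold (3.23 to 6.2) without drug by day 3 and stood at 1.54-fold (1.12 to 2.13) and 1.56-fold (1.13 to 2.16) of untreated on day 7 with the 2 regimens, below the limit. The level of USP18 was 8.52 CPM at the start, then 23.1 (CTRL), 24.3 (CONV-TOPO) and 27.3 CPM (EE-TOPO) on day 3, and 10.7, 24.9 and 32.0 CPM in the same order on day 7. USP18, which also dampens signalling at IFNAR2, was highest with EE-TOPO on day 7, at 2.99-fold (2.53 to 3.53) of untreated. Reads of USP18 can be shared with its near-identical copy USP41, which has no row in the table, so its level is uncertain.

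MX1 and MX2 are GTPases that trap viral particles. For MX1, day 3 gave 310.3 CPM in CTRL, 337 in CONV-TOPO and 339 in EE-TOPO, day 7 gave 121, 394 and 356 CPM, and untreated day 0 gave 52.5 CPM. MX2 was measured at 7.19, 47.8 and 21.7 CPM without drug (days 0, 3, 7), at 60.9 and 46.7 CPM with CONV-TOPO (days 3, 7) and at 57.1 and 39.3 CPM with EE-TOPO (days 3, 7). MX1 rose 5.92-fold (5.54 to 6.32) by day 3 without drug and had its highest levels in the treated day-7 libraries. An antisense RNA overlaps 8.50% of the MX1 transcript. MX2 was highest with CONV-TOPO on day 3. Of the helicases, IFIH1 is MDA5, a sensor of long double-stranded RNA, and DDX60 and DDX60L are related proteins that aid such sensing. Untreated IFIH1 went from 14.5 CPM on day 0 to 50.5 on day 3 and 25.2 on day 7, CONV-TOPO spheroids held 63.1 and 31.8 CPM and EE-TOPO spheroids 66.1 and 28.3 CPM on days 3 and 7. The level of DDX60 was 14.4 CPM at the start, then 46.1 (CTRL), 58.6 (CONV-TOPO) and 63.6 CPM (EE-TOPO) on day 3, and 24.8, 33.7 and 19.8 CPM in the same order on day 7. For DDX60L, day 3 gave 27.1 CPM in CTRL, 37.8 in CONV-TOPO and 34.5 in EE-TOPO, day 7 gave 20.8, 13.7 and 15.1 CPM, and untreated day 0 gave 8.83 CPM. All 3 were highest in the treated day-3 libraries and lower in every library of day 7. On day 7 DDX60 with EE-TOPO was 0.586-fold (0.503 to 0.682) of CONV-TOPO, the lowest such ratio among the 42.

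The membrane proteins BST2 (tetherin), IFITM1 and IFITM3 hold back virus release and entry. BST2 was measured at 9.18, 61.1 and 38.7 CPM without drug (days 0, 3, 7), at 143 and 271 CPM with CONV-TOPO (days 3, 7) and at 118 and 225 CPM with EE-TOPO (days 3, 7). Untreated IFITM1 went from 42.2 CPM on day 0 to 273 on day 3 and 143 on day 7, CONV-TOPO spheroids held 404 and 898 CPM and EE-TOPO spheroids 334 and 694 CPM on days 3 and 7. The level of IFITM3 was 208 CPM at the start, then 466 (CTRL), 494 (CONV-TOPO) and 452 CPM (EE-TOPO) on day 3, and 260.2, 1172 and 1074 CPM in the same order on day 7. All 3 were highest with CONV-TOPO on day 7, next highest with EE-TOPO on day 7, and lowest on untreated day 0. BST2 was 6.99-fold (6.47 to 7.56) of untreated under CONV-TOPO and 5.80-fold (5.35 to 6.28) under EE-TOPO on day 7, IFITM1 was 6.27-fold (6.02 to 6.53) and 4.85-fold (4.65 to 5.05), and IFITM3 was 4.51-fold (4.37 to 4.65) and 4.13-fold (4.0 to 4.26). IFITM1, IFITM3 and their neighbour IFITM2 (71.3 to 265 CPM) are close paralogs and can share reads, and a readthrough annotation covers 52.5% of the IFITM1 transcript.

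CMPK2, a mitochondrial nucleotide kinase, and RSAD2 (viperin), which makes a chain-terminating nucleotide, lie next to each other. For CMPK2, day 3 gave 57.9 CPM in CTRL, 63.1 in CONV-TOPO and 73.2 in EE-TOPO, day 7 gave 28.7, 39.96 and 39.7 CPM, and untreated day 0 gave 16.9 CPM. RSAD2 was measured at 12.3, 60.3 and 22.4 CPM without drug (days 0, 3, 7), at 76.5 and 37.9 CPM with CONV-TOPO (days 3, 7) and at 93.2 and 46.2 CPM with EE-TOPO (days 3, 7). Both peaked with EE-TOPO on day 3. PARP9 and DTX3L form a complex of ADP-ribosylation and ubiquitin ligation and start from one shared promoter region, and PARP14 is a relative of PARP9. Untreated PARP9 went from 58.9 CPM on day 0 to 164 on day 3 and 105 on day 7, CONV-TOPO spheroids held 192 and 128 CPM and EE-TOPO spheroids 196 and 114 CPM on days 3 and 7. The level of DTX3L was 89.9 CPM at the start, then 203 (CTRL), 214 (CONV-TOPO) and 247 CPM (EE-TOPO) on day 3, and 121, 118 and 134 CPM in the same order on day 7. For PARP14, day 3 gave 136 CPM in CTRL, 197 in CONV-TOPO and 243 in EE-TOPO, day 7 gave 120.2, 77.3 and 94.5 CPM, and untreated day 0 gave 65.3 CPM. The 3 were highest with EE-TOPO on day 3. PARP14 was 1.78-fold (1.70 to 1.86) of untreated there and 0.786-fold (0.734 to 0.842) on day 7, and with CONV-TOPO 1.44-fold (1.37 to 1.52) and 0.643-fold (0.599 to 0.691). The exons of CMPK2 and RSAD2 overlap over 11.3% of the CMPK2 transcript and those of DTX3L and PARP9 over 2.41% of the DTX3L transcript, on opposite strands that the library kit does not mark. SAMD9 and SAMD9L are restriction factors and growth suppressors. SAMD9 was measured at 31.6, 119.5 and 54.1 CPM without drug (days 0, 3, 7), at 131 and 50.8 CPM with CONV-TOPO (days 3, 7) and at 164 and 53.1 CPM with EE-TOPO (days 3, 7). Untreated SAMD9L went from 15.6 CPM on day 0 to 73.9 on day 3 and 36.8 on day 7, CONV-TOPO spheroids held 94.2 and 27.2 CPM and EE-TOPO spheroids 98.1 and 29.8 CPM on days 3 and 7. Both stood above day 0 in all 3 libraries of day 3, and lower on day 7 than on day 3 in each arm. SAMD9L on day 7 was 0.739-fold (0.652 to 0.836) and 0.809-fold (0.715 to 0.915) of untreated.

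IFI27 and IFI6, small proteins of mitochondria and endoplasmic reticulum that modulate cell death, had the highest ratios on day 7. The level of IFI27 was 3.47 CPM at the start, then 26.4 (CTRL), 50.8 (CONV-TOPO) and 55.9 CPM (EE-TOPO) on day 3, and 9.14, 151 and 148 CPM in the same order on day 7. For IFI6, day 3 gave 496 CPM in CTRL, 896 in CONV-TOPO and 926 in EE-TOPO, day 7 gave 190.2, 1736 and 1517 CPM, and untreated day 0 gave 80.3 CPM. IFI27 spanned 43.4-fold between its lowest and highest library, the widest range of the 42, and IFI6 21.6-fold. On day 7 IFI27 was 16.5-fold (14.2 to 19.3) of untreated under CONV-TOPO and 16.2-fold (13.9 to 19.0) under EE-TOPO, and IFI6 was 9.13-fold (8.82 to 9.45) and 7.98-fold (7.71 to 8.26). The regimens differed little, with EE-TOPO at 0.985-fold (0.926 to 1.05) of CONV-TOPO for IFI27. IFI35 was measured at 19.3, 46.9 and 26.3 CPM without drug (days 0, 3, 7), at 56.7 and 82.7 CPM with CONV-TOPO (days 3, 7) and at 38.8 and 65.5 CPM with EE-TOPO (days 3, 7). Untreated IFI44 went from 10.8 CPM on day 0 to 46.9 on day 3 and 21.5 on day 7, CONV-TOPO spheroids held 57.0 and 42.2 CPM and EE-TOPO spheroids 66.7 and 47.6 CPM on days 3 and 7. The level of IFI44L was 20.1 CPM at the start, then 106 (CTRL), 136 (CONV-TOPO) and 138 CPM (EE-TOPO) on day 3, and 48.6, 63.4 and 60.7 CPM in the same order on day 7. Of these, IFI35 was called higher with both regimens on day 7, IFI44 with EE-TOPO, and IFI44L with neither, at 1.30-fold (1.19 to 1.43) and 1.25-fold (1.14 to 1.37). LINC02574, annotated on the same strand, overlaps 26.6% of the IFI6 transcript.

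Of the remaining effectors, XAF1 antagonises the apoptosis inhibitor XIAP, TRIM22 is a ubiquitin ligase, EPSTI1 is of less known function and LGALS3BP is a secreted glycoprotein that binds galectins. For XAF1, day 3 gave 12.1 CPM in CTRL, 21.4 in CONV-TOPO and 12.9 in EE-TOPO, day 7 gave 8.44, 7.58 and 5.99 CPM, and untreated day 0 gave 1.22 CPM. TRIM22 was measured at 2.60, 17.8 and 11.5 CPM without drug (days 0, 3, 7), at 22.2 and 14.1 CPM with CONV-TOPO (days 3, 7) and at 16.5 and 10.5 CPM with EE-TOPO (days 3, 7). Untreated EPSTI1 went from 0.867 CPM on day 0 to 4.98 on day 3 and 2.40 on day 7, CONV-TOPO spheroids held 8.03 and 4.89 CPM and EE-TOPO spheroids 5.74 and 4.07 CPM on days 3 and 7. These 3 were scarce on untreated day 0, all below 3 CPM, and highest with CONV-TOPO on day 3. PRAL, annotated on the other strand, covers 74.2% of the XAF1 transcript, so XAF1 reads cannot be assigned with certainty. The level of LGALS3BP was 192 CPM at the start, then 405 (CTRL), 612 (CONV-TOPO) and 612 CPM (EE-TOPO) on day 3, and 285, 1146 and 1227 CPM in the same order on day 7. LGALS3BP was highest in the 2 treated day-7 libraries, at 4.02-fold (3.90 to 4.15) and 4.31-fold (4.18 to 4.44) of untreated.

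On both days each of the 42 genes differed by less than 2-fold between the 2 regimens. With EE-TOPO against CONV-TOPO of the same day, 0 of the 42 genes were called in either direction on day 3 or on day 7, against 1.9% higher and 1.29% lower of tested genes on day 3 and 3.25% and 2.29% on day 7. With shares this small, 0 of 42 is near what tested genes in general gave. The medians of the log2 ratios were 0.03 (day 3) and -0.03 (day 7). On day 3 these ran from -0.77 (ISG20) to 0.49 (IFIT2), and on day 7 from -0.77 (DDX60) to 0.71 (IFIT2). Intervals left out 1 for 28 genes on day 3 (15 higher, 13 lower) and for 30 on day 7 (15 higher, 15 lower), so that single genes differed by more than counting error in both directions.

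The split on day 7 ran along transcript length, which also ordered genes in general. Across the 42 genes, the rank correlation of the day-7 log2 ratio with the length of the GENCODE 44 canonical transcript was -0.82 with CONV-TOPO and -0.82 with EE-TOPO, and across 11063 and 11096 genes with at least 5 CPM it was -0.64 and -0.60. For untreated day 3 against day 0 it was -0.07 across the 42 and 0.08 across 11057 genes. Across genes in general it was 0.44 for untreated day 7 against day 0 and -0.34 for untreated day 3 against day 7. With drug against untreated on day 3 it was 0.32 (CONV-TOPO) and 0.51 (EE-TOPO). Across the 42 these values were 0.12, -0.17, 0.02 and 0.24 in the same order. Trends with length across genes in general were thus also seen in other comparisons, mostly with the opposite sign to drug on day 7. Untreated day 3 against day 7 had the same sign, and it shares the untreated day-7 library. These correlations are descriptions across genes of single libraries, which share depth and preparation. Of the 14 interferon-stimulated genes with transcripts under 2000 bases, 13 were called higher on day 7 with CONV-TOPO and 14 with EE-TOPO, against 25.5% and 26.9% of all tested genes of that length. Of the 12 with 4000 bases or more, 0 were called with either, against 1.12% and 1.9% of tested genes of that length. Without drug on day 3 the same classes held 13 of 14 and 10 of 12 genes called higher than day 0. Median log2 ratios on day 7 were 1.70 and 1.66 for the short class, where tested genes of that length had 0.61 and 0.58, and -0.06 and 0.01 for the long class, where they had -0.50 and -0.49. IFI27 has a transcript of 725 bases, ISG15 of 637, MX1 of 2776, STAT2 of 4405 and PARP14 of 7694.

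**Figure D3:**
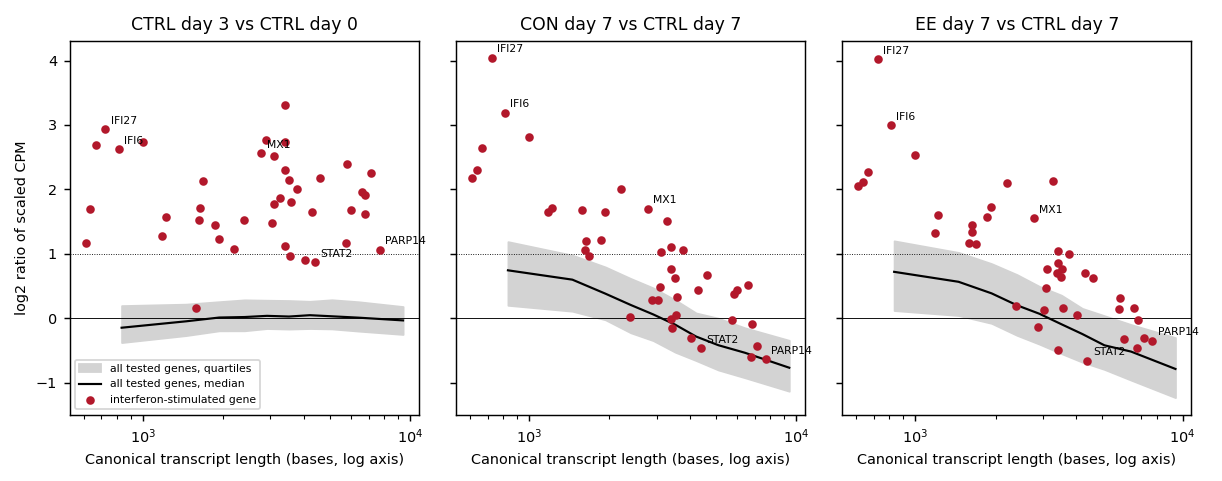
Log2 ratio of scaled CPM against canonical transcript length (bases, log axis) for the 42 genes (points) and for all tested genes (line, median in 10 length bins, grey band, quartiles) in 3 comparisons of single libraries. Without drug on day 3 the points show no slope, and on day 7 with either regimen they fall with length, from a median of 1.70 (CON) and 1.66 (EE) under 2000 bases to -0.06 and 0.01 at 4000 bases or more, where all tested genes go from 0.61 and 0.58 to -0.50 and -0.49.

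After a trend with transcript length, gene span and GC content over all genes was removed, a step chosen after seeing the data, the counts for day 7 were lower. For drug against untreated on day 7 this trend held 45.3% (CONV-TOPO) and 41.2% (EE-TOPO) of the variance of log2 ratios. In the other comparisons its share was 1.42% to 26.9%. Of the 40 genes with at least 5 CPM, 15 with CONV-TOPO and 14 with EE-TOPO were at a log2 ratio of 1 or more, against 2.19% and 3.56% of all genes so treated. The medians were not lower, at 0.83 and 0.80 against 0.71 and 0.76 for all 42 before this step. EPSTI1, called with CONV-TOPO before, was under 5 CPM and has no value here. IFI27 went from 4.04 to 3.10 under CONV-TOPO and from 4.02 to 3.09 under EE-TOPO. ISG15 went from 2.30 to 1.05 and from 2.12 to 0.88, and MX1 from 1.70 to 1.62 and from 1.55 to 1.48. Of the 16 genes called with both regimens, 9 were at 1 or more in both after this step and 7 were under 1 in at least 1 regimen. IRF7, IRF9, OAS1 and IFI35 were under 1 in both, at 0.68, 0.46, 0.83 and 0.83 under CONV-TOPO and 0.74, 0.81, 0.98 and 0.48 under EE-TOPO. USP18 was under 1 with CONV-TOPO (0.93), and ISG20 (0.73) and ISG15 were so with EE-TOPO. Of 20 genes with a value that had been called with neither, 3 reached 1 in 1 regimen, namely DDX60 at 1.19 and IFI44L at 1.03 with CONV-TOPO and IFIT1 at 1.00 with EE-TOPO. IFI44L thus moved from 0.38 to 1.03 with CONV-TOPO, and PARP14 from -0.64 to 0.03. For untreated day 3 against day 0 the same step left 34 of 41 genes at a log2 ratio of 1 or more, against 1.61% of genes, with a median of 1.72.

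The 6 libraries of days 3 and 7 were also fitted with limma on log2(scaled CPM + 1). Treatment and day were its terms, so that its error is how far an effect changed from day 3 to day 7. It called 0 of 14836 genes (0%) at an adjusted p under 0.05 for EE-TOPO or CONV-TOPO against no drug or for the 2 regimens against each other. At an unadjusted p under 0.05 there were 527, 258 and 134 genes in either direction. Among the 42, 9 were higher under EE-TOPO, against 2.33% of tested genes, and 7 under CONV-TOPO, against 1.09%, and none lower. Between the regimens 1 of the 42 was, higher with EE-TOPO, against 0.674% of tested genes. The medians of the 42 in that fit were 0.47 (EE-TOPO) and 0.45 (CONV-TOPO), and 38 and 36 genes were above 0. IFI27 changed by 2.47 (standard error 0.72, adjusted p = 0.908) on the log2 scale with EE-TOPO by limma with Benjamini-Hochberg adjustment, and IFI6 by 1.95 (standard error 0.58, adjusted p = 0.908). Left without the untreated day-3 library, the fit rested on 1 residual degree of freedom and called 6214 genes for EE-TOPO, 26 of the 42 among them, and 6490 for CONV-TOPO, 25 of the 42 among them.

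Upstream of these genes, interferon transcripts were scarce. Of 10 interferon genes looked for, 6 were listed and 1 (IFNE) passed the filter on low values. IFNB1 rested on 8 estimated reads with EE-TOPO on day 7 and 5 on day 3, on 1 with CONV-TOPO on day 3 and on untreated day 7, and on 0 in the other libraries, a count that allows up to 3. IFNA1 rested on 10 reads on untreated day 7 and on at most 4 elsewhere. IFNL1 rested on 15 reads with EE-TOPO on day 3 and 8 with CONV-TOPO on day 7, and on at most 3 elsewhere. For IFNE, day 3 gave 0.762 CPM in CTRL, 1.10 in CONV-TOPO and 1.47 in EE-TOPO, day 7 gave 4.49, 1.86 and 0.444 CPM, and untreated day 0 gave 1.22 CPM. IFNE, an epithelial interferon, was highest untreated on day 7, where none of the 42 genes was, and was called lower there with both regimens, at 0.414-fold (0.259 to 0.643) under CONV-TOPO and 0.0988-fold (0.0353 to 0.224) under EE-TOPO. None of the 9 receptor and kinase genes was called in any of the 9 comparisons. IFNAR1 was measured at 111, 116 and 111 CPM without drug (days 0, 3, 7), at 119.9 and 99.9 CPM with CONV-TOPO (days 3, 7) and at 133 and 98.3 CPM with EE-TOPO (days 3, 7). Untreated IFNAR2 went from 28.8 CPM on day 0 to 34.4 on day 3 and 29.3 on day 7, CONV-TOPO spheroids held 40.1 and 33.1 CPM and EE-TOPO spheroids 34.6 and 32.7 CPM on days 3 and 7. Both receptor subunits were highest in the 3 libraries of day 3, by less than the 2-fold limit.

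The level of SOCS1 was 2.60 CPM at the start, then 3.15 (CTRL), 3.49 (CONV-TOPO) and 4.89 CPM (EE-TOPO) on day 3, and 3.10, 4.82 and 10.8 CPM in the same order on day 7. SOCS1, a feedback inhibitor of the kinases, was 3.49-fold (2.58 to 4.78) of untreated with EE-TOPO on day 7, and 2.24-fold (1.67 to 3.02) of CONV-TOPO. SOCS3, PIAS1, PTPN2 and IRF2 were called in no comparison. Of 14 tested genes of nucleic acid sensing, 5 rose without drug by day 3, against 3.63% of tested genes, namely DDX58 (RIG-I) at 2.71-fold (2.42 to 3.03), IFI16 at 3.63-fold (3.13 to 4.22), EIF2AK2 (PKR) at 2.11-fold (1.99 to 2.24), SAMHD1 at 2.04-fold (1.91 to 2.18) and TLR3 at 5.67-fold (2.87 to 12.5). With drug on day 7, 2 of the 14 were called higher with both regimens, a share near the 9.56% and 11% of all tested genes. Both have transcripts under 2000 bases, the class in which 25.5% and 26.9% of tested genes were called. For TREX1, day 3 gave 7.53 CPM in CTRL, 7.95 in CONV-TOPO and 4.68 in EE-TOPO, day 7 gave 3.49, 17.6 and 15.4 CPM, and untreated day 0 gave 5.75 CPM. TREX1, which degrades cytosolic DNA, was 5.04-fold (3.85 to 6.65) and 4.40-fold (3.33 to 5.83), and IRF3 was 2.08-fold (1.93 to 2.25) and 2.36-fold (2.19 to 2.55). CGAS and STING1, sensor and adaptor for cytosolic DNA, were called in none, and STING1 was 1.55-fold (1.38 to 1.73) and 1.44-fold (1.28 to 1.62) of untreated on day 7.

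Of 20 antigen presentation genes and interferon-gamma targets, 12 were called higher without drug on day 3 against day 0 (3.63% of tested genes). On day 7 with drug 8 were called higher with CONV-TOPO (9.56%) and 10 with EE-TOPO (11%). CXCL9 alone was called lower with CONV-TOPO on day 7 (13.2% of tested genes), on 13 estimated reads untreated and 0 with CONV-TOPO. With EE-TOPO on day 7 CXCL9 rested on 19 reads and was called higher. On day 3 with drug 3 were called higher with CONV-TOPO (2.61% of tested genes) and 2 with EE-TOPO (3.96%). HLA-B was measured at 78.6, 219 and 148 CPM without drug (days 0, 3, 7), at 470.0 and 688 CPM with CONV-TOPO (days 3, 7) and at 625 and 967 CPM with EE-TOPO (days 3, 7). HLA-B, a class I antigen, was above untreated with both regimens on both days, at 2.15-fold (2.07 to 2.23) and 2.86-fold (2.76 to 2.95) on day 3 and 4.64-fold (4.46 to 4.84) and 6.53-fold (6.27 to 6.80) on day 7. Untreated CXCL10 went from 0 CPM on day 0 to 2.64 on day 3 and 0.30 on day 7, CONV-TOPO spheroids held 2.88 and 2.27 CPM and EE-TOPO spheroids 2.73 and 2.66 CPM on days 3 and 7. CXCL10, a chemokine that attracts T cells, rested on 6 estimated reads on untreated day 7 and on 0 on day 0. The level of CXCL11 was 0.918 CPM at the start, then 5.58 (CTRL), 12.1 (CONV-TOPO) and 6.44 CPM (EE-TOPO) on day 3, and 2.60, 3.31 and 3.03 CPM in the same order on day 7. CXCL11, a relative, was highest with CONV-TOPO on day 3. The class I antigen genes are close paralogs and can share reads.

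**Figure D4:**
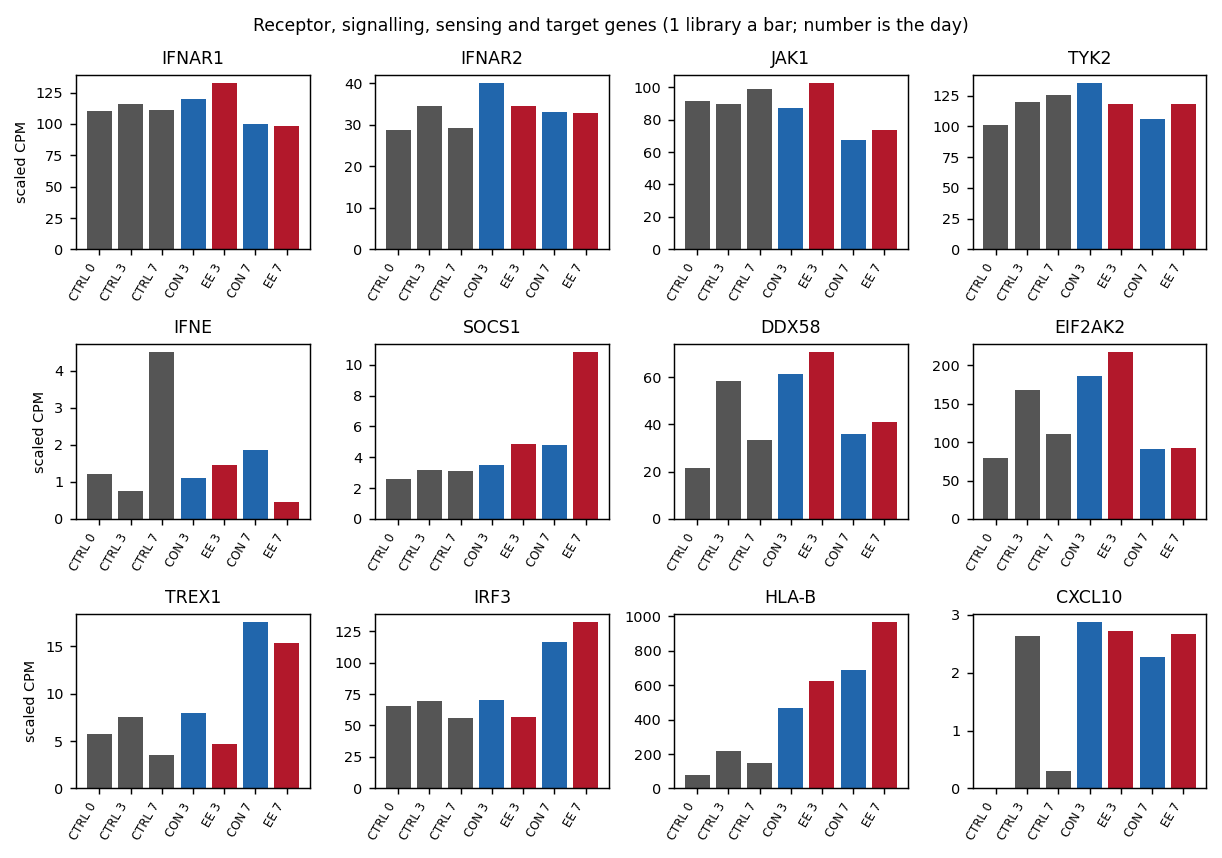
Scaled CPM (bars, from 0, 1 library each, no error bars) of 12 interferon, receptor, signalling, sensing and target genes without drug (grey), with CON (blue) and with EE (red), the number giving the day. IFNAR1, IFNAR2, JAK1 and TYK2 pass the 2-fold limit in no comparison, DDX58 and EIF2AK2 peak in the day-3 libraries, IFNE is highest in CTRL day 7, and TREX1, IRF3 and HLA-B are highest in the treated day-7 libraries.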

How the data were processed

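RNA of PC-3 spheroids was sequenced by the authors, aligned with STAR (genome hg38) and deposited as gene counts per 1000000 reads (CPM), to each of which 0.0001 had been added. The labels name hg38 and Partek. The counter, annotation and strand setting are not given in the sources used here. The offset was subtracted. The 42 genes and all gene lists were chosen with earlier results of these data known. By rule, members called in any comparison or extreme in one were given in every library, and of other lists up to 3 called genes in each direction and the receptor subunits. Some genes fixed in the lists, and a list that needs one of them, are not reported here. Further sensing genes, and members past the rule, were named after their values were seen.

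Depth was estimated from the step of 1 read, which 87.7% to 89.5% of values below 2 CPM met within 0.02 reads. As the rest were not whole, no test for counts was run and intervals are approximate. TMM and median-of-ratios factors were computed on the CPM. The 14836 tested genes had at least 0.529 CPM (10 reads at the median depth of 18.9 M) in at least 2 libraries. The 9 comparisons of single libraries used exact 95% conditional binomial intervals on estimated reads, which cover counting error only, and a limit of 2-fold. Nothing says that libraries came from separate cultures. The fit used limma 3.58.1 in R 4.3.3 with empirical Bayes, a mean-variance trend, Benjamini-Hochberg adjustment and 2 residual degrees of freedom. The design allowed for counts and day 1, and CPM of 7 libraries were used instead. Transcript length and GC content came from GENCODE 44 (17109 of 18144 genes, all 42 included) and promoters from RefSeq. Scripts ran in Python 3.11.15 (scipy 1.17.1, numpy 2.4.6, matplotlib 3.10.9, pandas 2.3.3) and were tested on simulated data.

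Alternatives were library totals, median-of-ratios factors, a 1.5-fold limit, added CPM, other filters, other untreated baselines, other libraries in the fit and no day term, and, chosen after seeing the data, removal of the trend with length, span and GC content.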

Additional observations from a re-analysis of the deposited data

Results flagged for a closer look

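For 4 of the 42 genes, both regimens lay on one side of untreated spheroids on day 3 and on the other side on day 7, each with an interval that left out 1. The difference between the days was not tested. IRF9 was 0.890-fold (0.829 to 0.955) under CONV-TOPO and 0.867-fold (0.813 to 0.924) under EE-TOPO on day 3 and higher than untreated on day 7, so that the log2 ratio with EE-TOPO was 1.65 greater on day 7 than on day 3. PARP14, SAMD9L and DDX60L were higher than untreated on day 3 and lower on day 7, with differences between the days (day 7 minus day 3) of -1.18, -0.71 and -0.81 with EE-TOPO. Their canonical transcripts of 7694, 7150 and 6759 bases are among the longest of the 42, and that of IRF9 has 1626 bases. With the trend in length, span and GC content removed, PARP14, SAMD9L and DDX60L were no longer below untreated on day 7. Their log2 ratios were then 0.03, 0.25 and 0.22 with CONV-TOPO and 0.35, 0.35 and 0.38 with EE-TOPO. IRF9 stayed above untreated, at 0.46 and 0.81.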

How the results depend on the processing

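Across scalings no direction of a called gene changed. Median-of-ratios factors kept every count of called genes within 1.5 times the reported one, and so did library totals except for EE-TOPO on day 3, where 2 genes were called instead of 1. Library totals moved the day-7 medians from 0.71 to 0.46 with CONV-TOPO and from 0.76 to 0.54 with EE-TOPO, by the scaling factors themselves. Of the 113 ratios called over the 9 comparisons, 12 were under 2-fold with library totals, 2 with median-of-ratios factors, 6 with 1 CPM added, and, of 109 with a value, 22 after removal of the trend with length, span and GC content.

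With a 1.5-fold limit the genes called were 35 for untreated day 3 against day 7, 27 for untreated day 7 against day 0, 6 and 7 for CONV-TOPO and EE-TOPO on day 3, and 3 and 4 between the regimens on days 3 and 7. With the trend removed they were 13 for untreated day 3 against day 7, and 2 and 3 for CONV-TOPO and EE-TOPO on day 3. Against untreated day 0, CONV-TOPO had 40 genes called on day 3 and 31 on day 7, and EE-TOPO 37 and 30. Against the mean of untreated days 0, 3 and 7 the counts were 19 for CONV-TOPO and 23 for EE-TOPO on day 3 and 12 for CONV-TOPO on day 7. The choice of the untreated library thus sets the day-3 counts. In the other alternatives the counts stayed within 1.5 times.

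In the limma fit, restriction to the 2 treatments compared gave 34 genes past the adjusted threshold for EE-TOPO, 9 for CONV-TOPO and 83 between regimens, with 1, 2 and 2 of the 42 among them. Without 1 library each, counts ran from 0 to 6214 for EE-TOPO, 0 to 6490 for CONV-TOPO and 0 to 85 between regimens, and of the 42 genes from 0 to 26, 0 to 25 and 0 to 2. Both upper values came without the untreated day-3 library. Without the untreated day-7 library 580, 126 and 83 genes were called, and without 1 treated library at most 60, 20 and 3. These fits have 1 residual degree of freedom and assume that a lone library varies like the others. The cause of these changes was not tested. Other scalings, 0.5 CPM added, no filter and no day term gave 0 calls. DESeq2 was not run on CPM. No paired analysis was possible because each treatment and day has 1 library. Where a gene is listed at 0, depth allows up to 3 reads, 0.222 scaled CPM in the shallowest library and 0.122 in the deepest.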
